A study of Mus musculus with 6 samples.

Results

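The ERK pathway feedback genes described here are 10 genes that ERK signalling is known to induce, chosen by symbol from the 55011 gene symbols of the count table, where all 10 were found. They are Dusp4, Dusp5, Dusp6, Spry1, Spry2, Spry4, Spred1, Spred2, Etv4 and Etv5. Messenger RNA was counted in cultured mesenchymal stromal cells of mouse visceral fat, the connective-tissue cells that include precursors of adipocytes, in 3 libraries of cells given 10 nM irisin/HSP90α for 3 days (called irisin here) and 3 libraries of cells given phosphate-buffered saline (PBS) for as long. Irisin is released when the membrane protein FNDC5 is cleaved, chiefly in muscle. The chaperone HSP90α also occurs outside cells. Cells of both groups are labelled as lacking EGFP from the Il33 reporter allele, which marks expression of the alarmin cytokine IL-33. The design asks whether irisin/HSP90α turns such cells from fat precursors into cells that modulate immunity. The labels do not state whether PBS wells held HSP90α, nor the age, sex and strain of the mice. Nor do they tie replicates to separate animals or wells, and the spread behind each p-value may therefore be technical only.

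ERK is the last kinase of a cascade that growth factor receptors start through RAS, RAF and MEK. Active ERK switches on genes whose products switch it off again, and the amounts of these transcripts are therefore widely used as a readout of the pathway. DUSP4, DUSP5 and DUSP6 are phosphatases that remove the activating phosphates of MAP kinases, DUSP4 and DUSP5 in the nucleus and DUSP6 in the cytoplasm. Sprouty (Spry) and SPRED proteins act higher up, between the receptor and RAF. ETV4 and ETV5 are ETS transcription factors of the PEA3 family that are induced by FGF and ERK signalling and drive targets of it. In fat precursors ERK signalling is best known for its part in proliferation and early adipocyte commitment.

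With irisin, 3 of the genes fell, 1 rose, and 6 did not pass the test. Dusp4 fell 2.47-fold, Spry4 fell 1.89-fold and Dusp5, which was close to the limit of detection, was lower as well. Spry2 rose 1.37-fold. Dusp6, Spry1, Spred1, Spred2, Etv4 and Etv5 lay between a log2 fold change of -0.29 and 0.05 without passing. The 12296 genes tested were compared by edgeR's quasi-likelihood test, and a gene passed at a Benjamini-Hochberg adjusted p under 0.05. By that rule 7.42% of all genes tested changed, 3.22% lower and 4.20% higher, against 3 lower and 1 higher of the 10 feedback genes. These genes and the lists below were chosen with earlier results of these data known, so such shares are descriptive. The median log2 fold change was -0.19 over the 10 genes and -0.01 over all genes tested. Dusp5 passed the low-count filter through its PBS libraries alone. Without it, 2 of 9 feedback genes were lower and 1 higher, with a median of -0.14.

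Upstream sequences of 3 members are shown, one that fell (Dusp5), one that rose (Spry2) and one that did not pass (Dusp6), since ERK reaches these genes through transcription factors. RefSeq windows (build GRCm38.p6) were at hand for 7 of the 10 genes, all but Dusp4, Spry4 and Etv4. The sequences below run 5′ to 3′ on the gene's own strand and end just before the annotated start of transcription. Capitals mark CArG boxes, the sites of serum response factor, which works with ETS-type partners that ERK phosphorylates.
Dusp5, chr19:53528895-53529108, plus strand: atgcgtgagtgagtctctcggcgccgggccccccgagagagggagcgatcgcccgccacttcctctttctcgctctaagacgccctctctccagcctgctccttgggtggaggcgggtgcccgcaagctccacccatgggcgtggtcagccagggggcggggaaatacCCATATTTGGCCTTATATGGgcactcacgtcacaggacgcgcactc
Spry2, chr14:105896820-105897069, minus strand: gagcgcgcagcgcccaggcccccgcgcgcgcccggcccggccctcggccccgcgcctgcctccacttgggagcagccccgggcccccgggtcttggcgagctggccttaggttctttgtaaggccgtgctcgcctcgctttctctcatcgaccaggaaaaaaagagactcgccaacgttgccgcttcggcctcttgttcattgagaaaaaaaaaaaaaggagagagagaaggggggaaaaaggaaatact
Dusp6, chr10:99262981-99263230, plus strand: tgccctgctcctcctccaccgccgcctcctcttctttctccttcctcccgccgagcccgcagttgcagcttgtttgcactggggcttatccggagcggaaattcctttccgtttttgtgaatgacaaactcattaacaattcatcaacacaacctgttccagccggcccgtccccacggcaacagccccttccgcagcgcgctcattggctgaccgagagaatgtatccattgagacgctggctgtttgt
The Dusp5 sequence held 2 CArG boxes end to end, at -82 and -72 from the RefSeq start. Neither the Spry2 nor the Dusp6 sequence held a match. Both strands of the 250 bases before each RefSeq start were searched for 5 motifs. They were the CArG box, the ETS-type motif CCGGAA, the AP-1 motif TGANTCA, the cyclic AMP response element TGACGTCA and the EGR motif GTGGGCG. Of these 5 motifs, no match other than the 2 boxes of Dusp5 was found in the 7 genes. Shorter forms were not searched, such as the ETS core GGAA, which each printed sequence holds on either strand. Among all 32851 windows of that length, 1.47% held a CArG box, 12% the motif CCGGAA and 6.75% the AP-1 motif. The cyclic AMP element was in 1.55% and the EGR motif in 7.02%. A match describes the letters of the window and was not tested as a binding site.

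Levels are given as CPM, read counts scaled to library size and composition. Dusp4, the phosphatase gene on chromosome 8 (34807297 to 34819894, GENCODE M21 on GRCm38), had 6.40, 9.47 and 8.64 CPM in the irisin libraries, against 18.7, 24.1 and 17.5 CPM in the PBS libraries. Every irisin value lay below every PBS value, with a gap nearly as wide as the irisin mean. The means were 8.17 ± 1.59 CPM with irisin and 20.1 ± 3.51 CPM with PBS (SD, n = 3 each), a log2 fold change of -1.31 ± 0.20 (SE, adjusted p = 0.000967, edgeR). In bulk RNA fewer cells that express a gene and less of its RNA per cell cannot be told apart. Dusp4 kept its call in all 16 alternative fits, among them those that left out 1 library each (log2 fold change -1.42 to -1.15).

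Dusp5, on chromosome 19, had only 4, 2 and 3 counts in the irisin libraries, against 11, 14 and 12 counts in the PBS libraries. No irisin count reached the lowest PBS count. Summed over libraries this gave 9 counts with irisin and 37 with PBS, a ratio of 0.255 after scaling (95% exact interval 0.108 to 0.538, counting error only). The fitted log2 fold change was -1.94 ± 0.48 (adjusted p = 0.0277, edgeR), and such a value depends on the prior count. Dusp5 passed the low-count filter through its PBS libraries alone, since 3 of 3 PBS and 0 of 3 irisin libraries reached 1.59 CPM. It was thus tested on the strength of its PBS level, and without it 2 of 9 members were lower. Its call was lost when any 1 of the 6 libraries was left out (adjusted p 0.0535 to 0.121), and with DESeq2 (adjusted p = 0.106). An antisense gene shares 547 exon bases with Dusp5, and the strand setting of the counting is not stated.

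Dusp6, on chromosome 10 and the most abundant of the 3 phosphatase genes, had 51.2, 49.9 and 42.3 CPM with irisin, against 48.9, 71.8 and 54.7 CPM with PBS. The groups overlapped, and PBS replicate 2 stood above the rest. Its log2 fold change of -0.29 ± 0.15 did not pass (adjusted p = 0.323, edgeR), and it came to -0.12 without PBS replicate 2. A fall of the size seen in Dusp4 lies well outside that error, whereas a small fall does not.

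**Figure D1:**
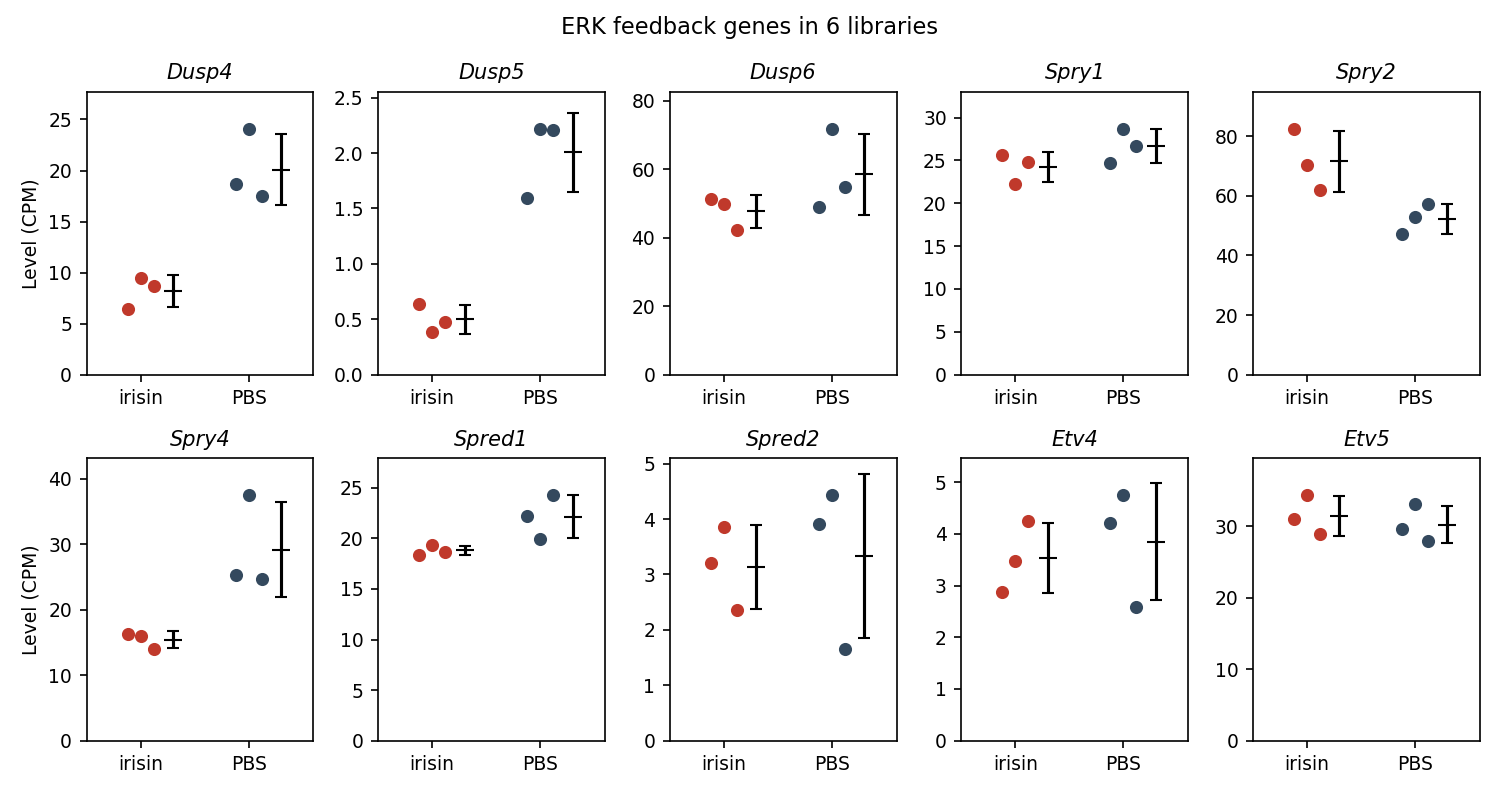
Levels of the 10 ERK feedback genes in CPM (vertical axes, each from 0) for 3 irisin and 3 PBS libraries; dots are libraries from replicate 1 to 3 and bars are the mean ± SD. Irisin values lie wholly below PBS values for Dusp4, Dusp5, Spry4 and Spred1, wholly above for Spry2, and overlap for the other 5 genes.

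The 3 Sprouty genes did not move together. Spry4, on chromosome 18, had 16.3, 16.04 and 14.0 CPM with irisin, against 25.3, 37.5 and 24.7 CPM with PBS. All irisin values lay below all PBS values, and PBS replicate 2 was again the highest. Spry4 averaged 15.5 ± 1.28 CPM with irisin and 29.2 ± 7.28 CPM with PBS (SD, n = 3 each), with a log2 fold change of -0.92 ± 0.18 (adjusted p = 0.00660, edgeR). The fall was -0.69 without PBS replicate 2, and the call held in all 16 alternatives (adjusted p at most 0.0455).

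Spry2, on chromosome 14, had 82.4, 70.3 and 62.1 CPM with irisin, against 47.0, 52.9 and 57.1 CPM with PBS. The groups did not overlap, but irisin replicate 3 lay only a little above PBS replicate 3. The means were 71.6 ± 10.2 CPM with irisin and 52.3 ± 5.05 CPM with PBS (SD, n = 3 each), and the log2 fold change was 0.45 ± 0.13 (adjusted p = 0.0468, edgeR). The value stood just inside the threshold and was lost in 7 of 16 alternatives. Those included leaving out irisin replicate 1 (adjusted p = 0.182) or 2 (0.138) or PBS replicate 1 (0.204) or 2 (0.125), and scaling by total counts alone (0.101). Spry2 was higher with irisin in every one of the 16 alternatives (log2 fold change 0.34 to 0.55).

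Spry1, on chromosome 3, had 25.6, 22.2 and 24.8 CPM with irisin, against 24.7, 28.7 and 26.7 CPM with PBS. These ranges overlapped and the log2 fold change of -0.14 ± 0.13 did not pass (adjusted p = 0.686, edgeR). Spry1 shares 710 exon bases with a predicted gene on the opposite strand.

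Because Spry2 and Spry4 moved in opposite directions, their ratio within a library was set out as well, which needs no scaling between libraries. Spry2 had 5.05, 4.39 and 4.44 counts per count of Spry4 in the irisin libraries, against 1.86, 1.41 and 2.31 in the PBS libraries. The difference in log2 ratio was 1.34, irisin minus PBS, and the 3 irisin ratios all exceeded the highest PBS ratio by a wide margin. The ratio of Dusp6 to Dusp4 was 8, 5.27 and 4.89 with irisin, against 2.61, 2.98 and 3.13 with PBS, a difference of 1.03 on the log2 scale. Of 8 such pairs within families, 5 had groups that did not overlap, each with an exact two-sided permutation p = 0.1, the smallest that 3 against 3 can give (adjusted p = 0.16 over the 8 pairs). With 3 libraries a group this permutation test cannot reach 0.05 for any ratio. The ratios restate the counts of the single genes, and several pairs share a gene, so they are not separate evidence. Dusp6 to Dusp5 rests on 4, 2 and 3 counts of Dusp5 in the irisin libraries. The share of ratios without overlap among all gene pairs was not computed. The pairs Dusp4 to Dusp5 (exact permutation p = 0.3), Etv5 to Etv4 (p = 1) and Spred1 to Spred2 (p = 0.9) overlapped between groups.

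**Figure D2:**
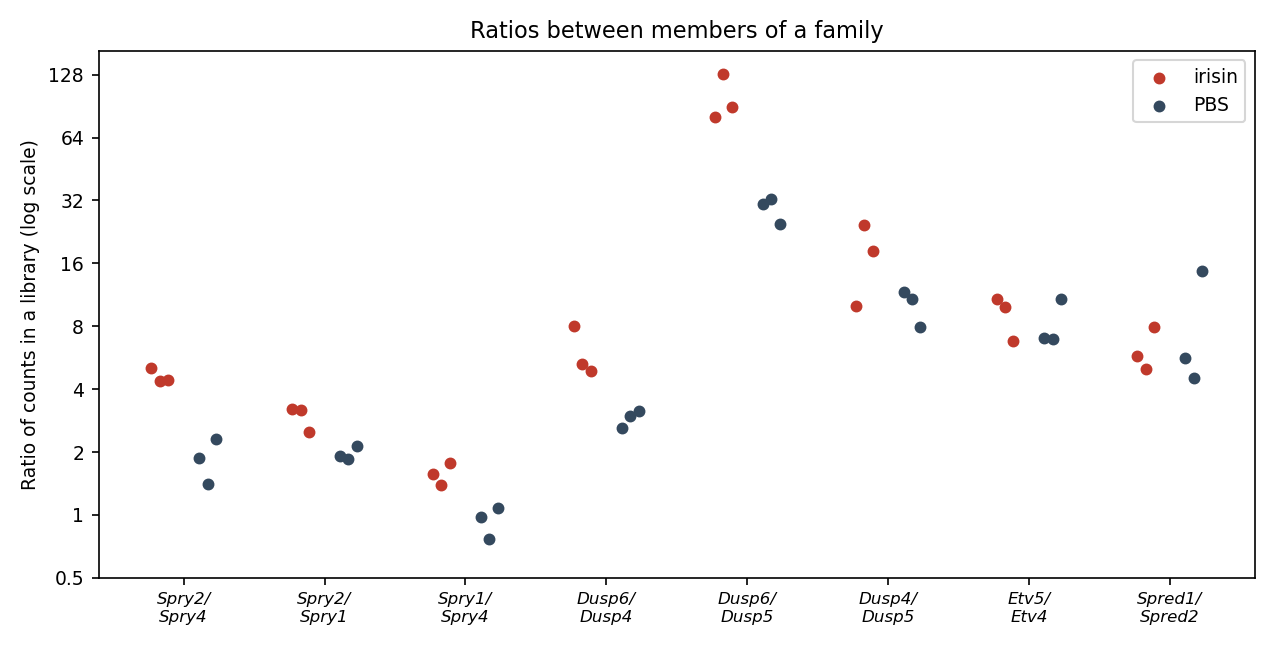
Ratios of the counts of 2 genes of a family within each library (vertical axis, log scale), for 3 irisin libraries on the left of each pair and 3 PBS libraries on the right. The irisin ratios lie above all PBS ratios for Spry2 to Spry4, Spry2 to Spry1, Spry1 to Spry4, Dusp6 to Dusp4 and Dusp6 to Dusp5.

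The SPRED genes, whose products hold back RAF activation at the membrane, did not pass. Spred1 (chromosome 2) had 18.4, 19.3 and 18.7 CPM with irisin, against 22.2, 20.0 and 24.3 CPM with PBS. The irisin values were tightly grouped just below the PBS values, with a log2 fold change of -0.23 ± 0.14 (adjusted p = 0.448, edgeR). Groups that do not overlap downward were found in 11.5% of all genes tested and upward in 12.1%, against 4 and 1 of the 10 feedback genes. The 4 include Dusp5, which passed the low-count filter through its PBS libraries alone, so its lack of overlap adds nothing to that count. Spred2 (chromosome 11) was low, with 3.20, 3.86 and 2.36 CPM with irisin, against 3.92, 4.44 and 1.66 CPM with PBS. Its log2 fold change of -0.12 ± 0.38 changed sign with the library left out, so neither direction nor size could be set at this depth of 9 to 28 counts.

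The PEA3 transcription factors, a pair often followed as an output of FGF and ERK signalling, did not pass either. Etv5 (chromosome 16) had 31.0, 34.4 and 28.9 CPM with irisin, against 29.6, 33.1 and 27.98 CPM with PBS. These values interleave, and the log2 fold change was 0.05 ± 0.13 (adjusted p = 0.899, edgeR), with the sign turned by total-count scaling (-0.02) and without irisin replicate 2 (-0.01). Etv4 (chromosome 11) had 2.88, 3.48 and 4.24 CPM with irisin, against 4.21, 4.75 and 2.58 CPM with PBS, and a log2 fold change of -0.13 ± 0.32 (adjusted p = 0.898). The error was much wider for Etv4 than for Etv5.

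**Figure D3:**
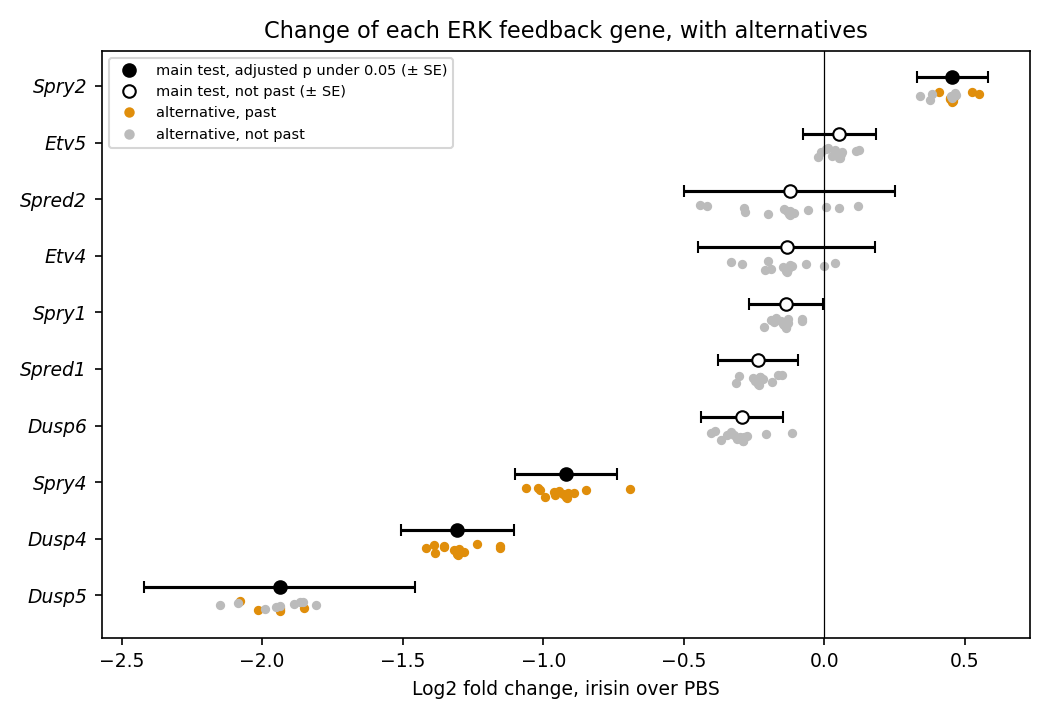
Log2 fold change of irisin over PBS for each gene (horizontal axis), with black circles for the main test ± SE, filled where adjusted p was under 0.05, and small dots below for each alternative, orange where past the threshold and grey where not. Dusp4 and Spry4 are past it in all alternatives, Dusp5 and Spry2 in some, and the other 6 genes in none.

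Per length of annotated exon, Spry2 was the most abundant of the 10 genes in both groups, with 34.3 CPM per kb with irisin and 25.1 with PBS. Dusp6 was next with 15.3 CPM per kb with irisin and 18.7 with PBS, and its PBS values overlapped those of Spry2 while its irisin values did not. In irisin libraries the order went on with Spry1 (8.33) and Etv5 (7.67), which overlapped, then Spry4 (3.25), Dusp4 (2.98) and Spred1 (2.77), which overlapped from one to the next. In PBS libraries Dusp4 (7.34 CPM per kb) and Spry4 (6.13) stood instead beside Etv5 (7.37), overlapping it in turn, and above Spred1 (3.27). Etv4, Spred2 and Dusp5 were the lowest 3 genes in both groups, from 0.202 to 1.14 CPM per kb with irisin and from 0.723 to 1.24 with PBS. Exon lengths join all annotated isoforms, so genes whose main isoform is shorter are understated.

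Within the PBS group, replicate 2 was the highest library for 8 of the 10 genes and replicate 3 the lowest for 5. Within the irisin group no library was highest for more than 5 genes. Over all tested genes, irisin replicate 1 and PBS replicate 3 stood apart from the remaining 4 on the second principal component (24.5% of variance). Without this pair, a choice made with the values known, the same 4 genes were called, and the log2 fold changes were -1.24 for Dusp4, -2.08 for Dusp5, -1.06 for Spry4 and 0.41 for Spry2. The part of these libraries in the spread of single genes was not tested.

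Total counts ran from 5360724 to 6588363 with irisin and from 5271309 to 6745799 with PBS. Overall 516 genes were higher and 396 lower with irisin, a share of 56.6% upward that became 41.2% (422 higher, 602 lower) with total-count scaling. All 8 stromal markers were tested, with summed levels of 50350 to 55320 CPM with irisin and 36700 to 44320 CPM with PBS. The collagens carry most of that sum, and the single markers went both ways, since Pdgfra and Col1a1 (0.49 ± 0.11, adjusted p = 0.0155) rose, and Lum (-0.76 ± 0.14, adjusted p = 0.00659) and Thy1 (-1.30 ± 0.20, adjusted p = 0.00138) fell (edgeR). Col1a1 lost its call without irisin replicate 2 or 3. The 8 lymphocyte markers summed to at most 1.12 CPM, with Cd3e, Cd3g, Cd8a and Nkg7 at 0 in all libraries. Adipocyte markers moved with the treatment, since 7 of 7 tested fell and their sum was 47.8 to 54.9 CPM with irisin and 193 to 299 CPM with PBS, with Lep at 0. Of the 7, Cfd lost its call without irisin replicate 2 or PBS replicate 3. Of 4 tested pericyte markers, 2 fell and 0 rose (edgeR, with 0 higher at an unadjusted p under 0.05 and 0 by DESeq2 and limma-voom), and the list summed to 39.5 to 64.7 CPM with irisin and 44.4 to 68.8 CPM with PBS. The falls were in Cspg4, at 2.23 ± 0.650 CPM with irisin and 6.87 ± 0.656 CPM with PBS (log2 fold change -1.63 ± 0.29, adjusted p = 0.00324), and in Abcc9 (-0.98 ± 0.25, adjusted p = 0.0285), which lost its call when any library other than PBS replicate 3 was left out. Endothelial markers summed to 19.7 to 26.7 CPM with irisin and 31.1 to 38.0 CPM with PBS, with Tek alone at 22.4 ± 3.81 CPM with irisin and 33.8 ± 3.10 CPM with PBS. Tek, the 1 endothelial marker tested, fell (-0.59 ± 0.15, adjusted p = 0.0303), with the call lost without irisin replicate 2 or 3 or PBS replicate 1 or 2. Other endothelial markers were too low to test and went both ways. Vwf had 5, 8 and 8 counts with irisin, against 0, 2 and 0 with PBS. Pecam1 had 2, 0 and 0 counts with irisin, against 6, 4 and 2 with PBS. The part of the adipocyte, pericyte and endothelial markers in the falls of Dusp4, Dusp5 and Spry4 was not tested. Macrophage markers summed to 71.7 to 92.7 CPM with irisin and 71.3 to 88.4 CPM with PBS. Most of that sum was Csf1r, at 59.2 ± 5.16 CPM with irisin and 59.7 ± 5.54 CPM with PBS. Csf1r shares 873 exon bases with Hmgxb3, a protein-coding gene on the opposite strand, and the strand setting of the counting is not stated. Ptprc, Fcgr1 and Mrc1 had at most 5 counts in a library, and Adgre1 was at 0 outside replicate 3 of each group. Mesothelial markers summed to 44.1 to 54.0 CPM with irisin and 37.2 to 42.9 CPM with PBS, with Upk1b at 0. None of the 4 macrophage and 2 mesothelial markers tested passed in edgeR, DESeq2 or limma-voom, or had an unadjusted p under 0.05. Mitochondrial transcripts took 0.846% to 0.916% of counts with irisin and 0.847% to 0.905% with PBS.

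Of 13 other members of the same families, 11 were tested, 1 rose and 1 fell (18.2% called, against 7.42% of all genes tested), with a median log2 fold change of 0.05. Spry3, a further Sprouty gene, rose to 9.97 ± 0.943 CPM with irisin, against 5.89 ± 0.499 CPM with PBS (log2 fold change 0.76 ± 0.20, adjusted p = 0.0411, edgeR). That call was lost when any single library was left out (adjusted p 0.0508 to 0.148), and with DESeq2 (0.105). Dusp22, a phosphatase that acts mainly outside the ERK branch, fell to 28.5 ± 3.51 CPM, against 40.7 ± 2.38 CPM with PBS (log2 fold change -0.51 ± 0.13, adjusted p = 0.0270). Its call was lost without irisin replicate 2 or 3 or PBS replicate 1 or 2 (adjusted p 0.0719 to 0.148). Dusp1, the stress- and glucocorticoid-induced phosphatase of p38 and JNK, had 106 ± 9.92 CPM with irisin and 107 ± 13.4 CPM with PBS (log2 fold change -0.01 ± 0.11). Dusp3, Dusp7, Dusp8, Dusp10, Dusp14, Dusp16, Spred3 and Etv1 did not pass, with log2 fold changes of -0.16 to 0.59. Dusp2 and Dusp9 had at most 2 counts in a library and were not tested.

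In the cascade from receptor adaptors to ERK and its kinase targets, the share of genes called was near that of all genes. Of 25 cascade genes, all tested, 2 rose and 0 fell, 8% called against 7.42% of all genes tested (edgeR; 2 were lower at an unadjusted p under 0.05, and limma-voom called 1 and DESeq2 0 lower). The rises were Map2k1, which encodes the kinase MEK1 that activates ERK (268 ± 6.19 CPM with irisin and 189 ± 7.83 CPM with PBS, log2 fold change 0.51 ± 0.08, adjusted p = 0.00122), and Ksr1, a scaffold that joins RAF to MEK (log2 fold change 0.70 ± 0.14, adjusted p = 0.00908). Ksr1 lost its call without irisin replicate 2 (adjusted p = 0.0509), and an antisense gene shares 186 of its exon bases. Of 12 other inhibitors of receptor kinases, RAS or RAF that were tested, 0 passed in either direction (edgeR; 1 was higher and 0 lower at an unadjusted p under 0.05, DESeq2 called 0, and limma-voom called 1 higher).

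A list of target genes of growth factors and ERK also held Srf, Elk1, Elk3 and Elk4, transcription factors through which ERK acts. Of its 22 tested genes, 4 fell and 3 rose, 18.2% lower and 13.6% higher, against 3.22% lower and 4.20% higher of all genes tested. The list was chosen with earlier results of these data known. The EGR transcription factors fell with Dusp4 and Spry4. Egr1 was 50.6 ± 4.06 CPM with irisin and 111 ± 24.99 CPM with PBS (log2 fold change -1.13 ± 0.15, adjusted p = 0.000396, edgeR), and Egr2 was 25.1 ± 5.08 CPM with irisin and 53.1 ± 11.4 CPM with PBS (-1.08 ± 0.18, adjusted p = 0.00191). Egr3 (-1.85 ± 0.47, adjusted p = 0.0301) passed the low-count filter through its PBS libraries alone. It was thus tested on the strength of its PBS level, and the 18.2% lower includes it. Fos had groups that overlapped (-1.13 ± 0.29, adjusted p = 0.0398). Egr3 lost its call without irisin replicate 1, 2 or 3 or PBS replicate 1 or 2 (adjusted p 0.0670 to 0.159), and Fos without irisin replicate 1 or 3 or PBS replicate 1 or 2 (0.138 to 0.159). PBS replicate 2 was the highest PBS library for all 4 of these genes and PBS replicate 3 the lowest. Epha4, an ephrin receptor, rose to 18.8 ± 2.19 CPM with irisin, against 4.72 ± 1.89 CPM with PBS (log2 fold change 1.97 ± 0.24, adjusted p = 0.000163). Junb, an AP-1 subunit, was higher as well (0.52 ± 0.09, adjusted p = 0.00271). Fosl2 (0.35 ± 0.10, adjusted p = 0.0466) lost its call when any single library was left out (adjusted p 0.0546 to 0.189). Of the 16 genes of this list with RefSeq windows, several with more than 1, Egr2 and Srf held a CArG box. Egr1 and Egr3 had no window, and sites beyond the 250 bases searched would be missed in any gene. The motif CCGGAA was found in Elk4, Egr2 and Srf, and the EGR motif in Elk4 and Egr2. Plaur held the AP-1 motif and Epha2 the cyclic AMP element.

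Growth factors and receptors were called in both directions, at 16.7% and 17.6% of the tested genes, against 7.42% of all genes tested. At an unadjusted p under 0.05 (edgeR), 3 growth factors were higher and 3 lower, and 2 receptors higher and 5 lower. For receptors limma-voom called 2 higher and 4 lower, and DESeq2 2 higher and 2 lower. Of 18 growth factor genes tested, Fgf7, a fibroblast growth factor for epithelia (178 ± 6.52 CPM with irisin and 111 ± 14.3 CPM with PBS, log2 fold change 0.69 ± 0.10, adjusted p = 0.000728, edgeR), and Kitl, the ligand of KIT (0.42 ± 0.11, adjusted p = 0.0365), rose. Gas6, a ligand of TAM receptors, fell (-0.86 ± 0.08, adjusted p = 1.425e-05). Of 17 receptor genes tested, Pdgfra (0.60 ± 0.09, adjusted p = 0.000620), a receptor of platelet-derived growth factors, rose, and Mertk, a TAM receptor (-1.42 ± 0.28, adjusted p = 0.00619), and Fgfrl1, an FGF receptor without a kinase domain (-0.53 ± 0.13, adjusted p = 0.0198), fell. Kitl lost its call without irisin replicate 1, 2 or 3 or PBS replicate 1 or 2 (adjusted p 0.0531 to 0.182), and Fgfrl1 without irisin replicate 2 or 3 or PBS replicate 1 or 2 (0.0536 to 0.116). Fgf2, a main inducer of Sprouty genes, did not pass (-0.37 ± 0.11, adjusted p = 0.0725). Its level was 72.7 ± 7.53 CPM with irisin and 93.9 ± 10.3 CPM with PBS. Ereg, also lower (-0.67 ± 0.20, adjusted p = 0.0637), and Igf1, higher (0.25 ± 0.09, adjusted p = 0.143), did not pass either (edgeR). An antisense gene shares 141 exon bases with Ereg. The part of growth factors in the Sprouty changes was not tested. Exons on the opposite strand also overlap Pdgfra (456 and 166 bases in 2 genes), Fgf2 (640 bases), Abcc9 (158), Junb (173), Gas6 (34), Dusp1 (11), Dusp3 (604), Dusp8 (66) and Spred3 (202), whose values are uncertain to that extent.

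**Figure D4:**
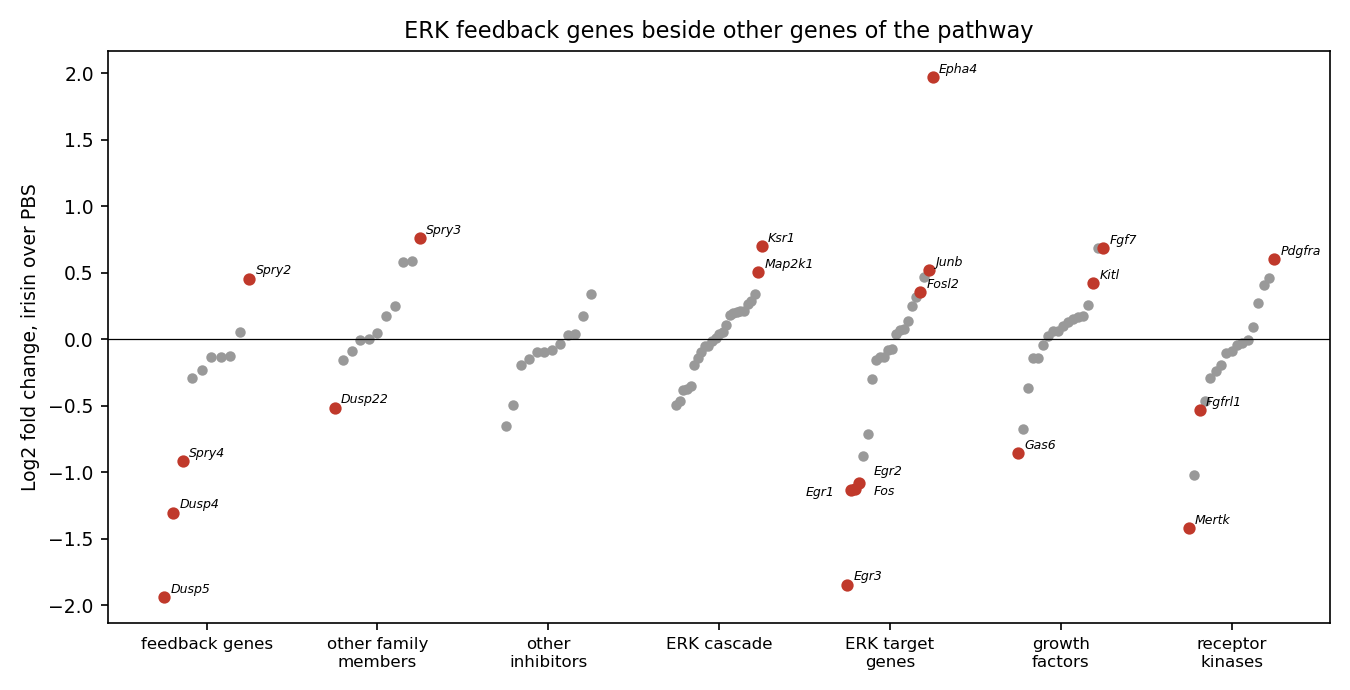
Log2 fold change of irisin over PBS (vertical axis) for the tested genes of 7 lists, ordered within each list, with named red dots for genes at adjusted p under 0.05 and grey dots for the rest. The feedback genes at the left hold 3 falls and 1 rise, the list labelled ERK target genes 4 falls and 3 rises, and the cascade 2 rises and no fall. Among the falls, Dusp5 and Egr3 passed the low-count filter through their PBS libraries alone.

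The genes whose pattern over the 6 libraries lay nearest to each called feedback gene were found among 8633 genes by the root mean square difference of centred log2(CPM + 1). For Dusp4 they were Mgp (difference 0.10), Ptgs2 (0.12) and Des (0.14), which encode matrix Gla protein, a prostaglandin synthase and desmin. For Spry4 they were Gdf15, a stress cytokine (0.14), Egr2 (0.15) and Tnfrsf11b, osteoprotegerin (0.15). Tnfrsf11b was also near Dusp5 (0.09), after Cav2 (0.08) and before Hpgd (0.11), though Dusp5 is so low that adding 1 CPM compresses its change. Spry2 was followed most closely by Snapc1 (0.04), Fkbp11 (0.06) and Yme1l1 (0.07). The measure is dominated by the difference between the groups and is a description of 6 libraries.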

How the data were processed

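Polyadenylated RNA of lysed culture wells was sequenced by the ultra-low-input protocol of the Immunological Genome Project, per the labels' protocols. The submitters' processing notes name STAR 2.7.3a, featureCounts and mm10. No source states the annotation release, strand setting or filters. The counts that the authors deposited are whole numbers for each gene symbol and library, without normalization.

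TMM factors and the robust quasi-likelihood test, with no block, were computed in edgeR 4.0.16 (R 4.3.3). Of 31436 genes with a count, 12296 were kept by filterByExpr (minimum count 10). P-values were adjusted over all genes tested. Each SE is the absolute log2 fold change divided by the square root of the test's F statistic, since the test itself reports none. To obtain CPM, counts were divided by the sum of tested genes times its TMM factor, so 1 CPM is about 5 to 7 counts. Scripts were tested on simulated data. Positions and exon lengths come from GENCODE M21, matched by symbol. The closest pair of libraries had a chi-square per degree of freedom of 2.74, so none repeated another.

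The members and lists were chosen with earlier results of these data known. A few genes of the growth factor and receptor lists are not reported here and were left out of the counts over these lists. Named were all 10 members, genes past the threshold in the other lists (at most 5 per direction), all relatives, and the 3 nearest genes in pattern (mean of 10 CPM or more, predicted genes left out). Fgf2, Ereg, Igf1, genes of the target list named for a motif alone and the marker genes were named after their values were seen. Alternatives were scaling by RLE, by upper quartile or by total counts, DESeq2 1.42.0, and limma-voom (limma 3.58.1) with quality weights. Further ones were non-robust dispersion, no filter, a count minimum of 50, the replicate block, and fits that left out single libraries. Also counted among the alternatives was the fit without PBS replicate 3 and irisin replicate 1 together, which was unplanned and chosen with the values known.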

Additional observations from a re-analysis of the deposited data

How the results depend on the processing

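Dusp4 and Spry4 kept direction and call in all 16 alternatives, and Dusp6, Spry1 and Spred1 kept direction and stayed uncalled. Dusp5 lost its call in 9 of 15 alternatives and Spry2 in 7 of 16, with the direction kept. Both kept the call in the unplanned fit without PBS replicate 3 and irisin replicate 1 together, which these counts include. At a count minimum of 50, 7 members were tested, and Dusp5, Spred2 and Etv4 gave no value. The number of members called higher was 0, in place of 1, with total counts alone, with no robust dispersion and with the replicate block, and 0 to 1 with 1 library left out. Members called lower numbered 2 to 3 throughout. Some uncalled members changed sign: with 1 library left out, log2 fold changes ran from -0.418 to 0.120 for Spred2, from -0.334 to 0.0387 for Etv4 and from -0.0133 to 0.124 for Etv5, and Etv5 was at -0.0246 with total counts alone. The cause was not tested. Over all genes, the calls were 336 to 705 higher and 238 to 585 lower with 1 library left out, 602 lower with total counts alone, and 892 higher and 788 lower without PBS replicate 3 and irisin replicate 1 together. Total-count scaling moved the median log2 fold change to -0.09, against -0.01.

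Same-numbered libraries were not clearly alike: their deviations correlated at -0.264, 0.197 and -0.201, and only irisin replicate 2 correlated best with its own number. With 3 libraries a group, and with irisin replicate 1 and PBS replicate 3 standing apart, this cannot tell whether replicate numbers pair the samples. With the replicate block, 422 genes were higher and 269 lower, and the adjusted p was 0.0760 for Dusp5 and 0.130 for Spry2. Depth limits Dusp5, Spred2 and Etv4, which had at most 30 counts in a library.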
